A study of Mus musculus with 8 samples.

Results

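Expression of 10 genes of transforming growth factor beta (TGF-beta) and bone morphogenetic protein (BMP) signalling was examined in fiber cells (FC) of the ocular lens, which form the bulk of the tissue, after exposure of mice to cigarette smoke (CS). The genes were the ligands Tgfb1 and Tgfb2, the receptors Tgfbr1, Tgfbr2, Bmpr1a and Acvr1, and the intracellular mediators Smad2, Smad3, Smad4 and Smad7. They were chosen by gene symbol, and each of the 10 symbols had a row among the 35275 genes listed. Libraries were made from lens FC of C57BL/6 mice (C57BL/6J in the methods), 4 from CS-exposed mice and 4 from untreated, age-matched control (Ct) mice. The exposed mice were born to dams kept in a whole-body smoke chamber and then spent 5 hours/day and 5 days/week in smoke for 3.5 months. Each library was a pool of FC from the right eyes of 4 mice, so a value is an average over a pool and not that of 1 animal. Both groups held pools of males and of females, but the labels do not say which library is which.

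TGF-beta ligands are secreted in a latent form that is held in the extracellular matrix. Once released, a ligand brings together a type II receptor, such as Tgfbr2, and a type I receptor, such as Tgfbr1, which then phosphorylates Smad2 and Smad3. BMP ligands act in the same way through type I receptors such as Bmpr1a and Acvr1, which phosphorylate Smad1, Smad5 and Smad9. Both arms share Smad4, which joins the phosphorylated SMADs in complexes that act in the nucleus. Smad7 is an inhibitory SMAD that the pathway itself induces. In the lens, BMP signalling is known for its part in lens induction and fiber differentiation. TGF-beta is known for turning lens epithelial cells into contractile, matrix-producing cells, as happens in anterior subcapsular and posterior capsular cataract.

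Promoters of 7 of the 10 genes were examined, from RefSeq (GRCm38.p6). Those of Smad2, Smad4 and Smad7 were not used here. The 250 bases before the start site are shown for both ligands and for the TGF-beta receptor pair, because these genes span the range of levels described below, from the highest member (Tgfb2) to the lowest (Tgfbr2). Each runs 5′ to 3′ on the strand of the gene. Capitals mark the GC box core (GGGCGG). They also mark the TATA box (TATAAA). Both were searched on either strand. The windows are chr7:25686752-25687001 (Tgfb1, plus strand), chr1:186705990-186706239 (Tgfb2, minus strand), chr4:47352972-47353221 (Tgfbr1, plus strand) and chr9:116175364-116175613 (Tgfbr2, minus strand).
Tgfb1: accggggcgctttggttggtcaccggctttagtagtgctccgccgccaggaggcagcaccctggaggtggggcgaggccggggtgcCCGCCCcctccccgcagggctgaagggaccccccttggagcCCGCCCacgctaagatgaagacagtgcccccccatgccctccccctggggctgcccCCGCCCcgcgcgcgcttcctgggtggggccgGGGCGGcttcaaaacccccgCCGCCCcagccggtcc
Tgfb2: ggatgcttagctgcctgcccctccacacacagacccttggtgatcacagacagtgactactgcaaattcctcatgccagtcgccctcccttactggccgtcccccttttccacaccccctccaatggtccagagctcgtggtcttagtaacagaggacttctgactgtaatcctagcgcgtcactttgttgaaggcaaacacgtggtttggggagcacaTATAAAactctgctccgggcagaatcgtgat
Tgfbr1: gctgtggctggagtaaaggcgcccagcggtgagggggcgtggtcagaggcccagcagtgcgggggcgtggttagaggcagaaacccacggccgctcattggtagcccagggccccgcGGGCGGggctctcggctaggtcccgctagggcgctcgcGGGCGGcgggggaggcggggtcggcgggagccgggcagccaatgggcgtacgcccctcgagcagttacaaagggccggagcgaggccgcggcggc
Tgfbr2: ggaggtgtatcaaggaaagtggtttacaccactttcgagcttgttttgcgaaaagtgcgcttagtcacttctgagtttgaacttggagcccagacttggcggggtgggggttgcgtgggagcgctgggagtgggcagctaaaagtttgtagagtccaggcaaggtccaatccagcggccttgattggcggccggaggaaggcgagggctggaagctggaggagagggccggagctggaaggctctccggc

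The window of Tgfb1 had a GC content of 75.2% and held 5 matches to GGGCGG, a motif found in 32.7% of 32851 promoter windows of the same length. The window of Tgfb2 had a GC content of 53.6%, near the median of 52.4% over all windows, and held no GGGCGG. It held 1 match to TATAAA, which was found in 12.4% of all windows, and 2 matches to CAGAC, a SMAD-binding element found in 42.2%. The 2 ligand windows differed in base composition, and the levels of the ligands differed by a factor of 1.31. A relation of promoter to level was not tested. Tgfbr1 had a GC content of 74.8% with 2 matches to GGGCGG, and Tgfbr2 58.4% with none. The window of Tgfbr2 held 1 match to CAGAC, and those of Tgfb1 and Tgfbr1 held none. The palindromic SMAD element GTCTAGAC (0.167% of windows) and the cyclic AMP response element TGACGTCA (1.55%) were not found in these 4 windows. A match is a run of letters and was not tested as a binding site.

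The values are FPKM, fragments counted on a gene and scaled to its length and to the depth of the library, so levels can be set against each other between genes. By mean FPKM over the 8 libraries the order of levels was Tgfb2 (15.2), Tgfb1 (11.6), Smad4 (11.6), Bmpr1a (5.59), Smad2 (5.52), Smad3 (3.16), Tgfbr1 (1.68), Smad7 (1.17), Acvr1 (1.06) and Tgfbr2 (0.0688). Some neighbours in this order were not apart. Tgfb1 exceeded Smad4 in 5 of 8 libraries, and Bmpr1a exceeded Smad2 in 5 of 8, with overlapping ranges in both cases. Other steps were clear, since the ranges of Smad4 and Bmpr1a, of Smad2 and Smad3, of Smad3 and Tgfbr1, and of Acvr1 and Tgfbr2 did not overlap over the 8 libraries. The last step was the widest, with a mean of Acvr1 15.5 times that of Tgfbr2. A gene was tested where the mean of Ct or of CS-exposed mice reached 1.0 FPKM. Among the 9794 tested genes, 80.1% lay below Tgfb2 and 17.3% below Tgfbr1.

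**Figure D1:**
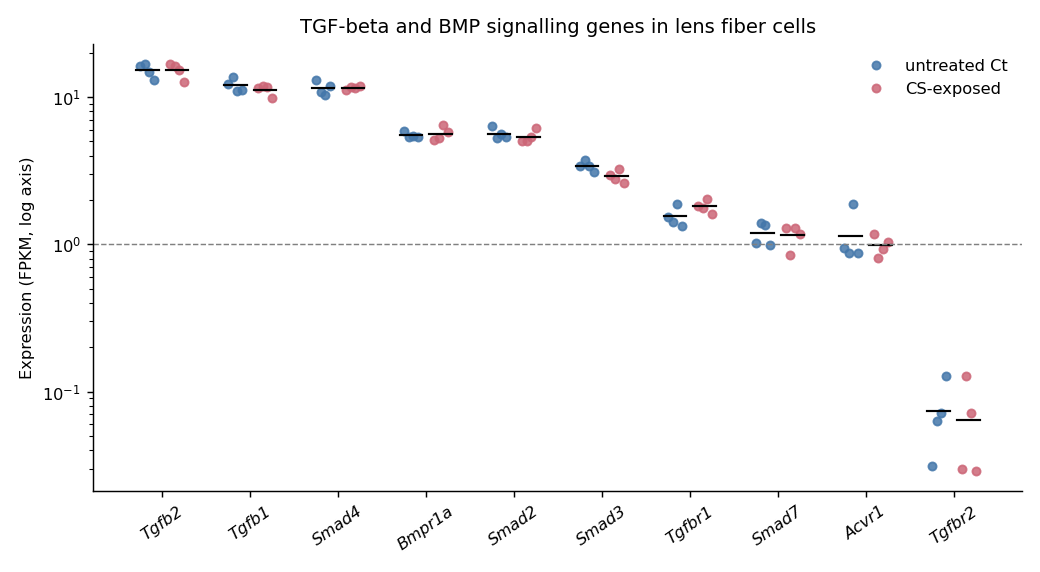
Expression (FPKM, log axis) of the 10 genes, ordered by mean level, in 4 untreated Ct libraries (blue) and 4 CS-exposed libraries (red). Each point is 1 library, black bars are group means and the dashed line is the minimum mean of 1.0 FPKM for a test. Points of both groups overlap for every gene, and Tgfbr2 lies far below the other 9.

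The libraries were checked for other cells. All 8 lens fiber markers (such as Mip and Bfsp1) were present, with a summed level of 77600 to 84500 FPKM. By mean over the 8 libraries, Crygb (38700 FPKM) and Cryba1 (29400 FPKM) were the highest of them and Lim2 (7.48 FPKM) the lowest. The 7 lens epithelium markers were present at a summed 48.8 to 105 FPKM in Ct and 38.2 to 65.3 FPKM in CS-exposed mice. Their mean log2 value was 0.22 lower in CS-exposed mice, within the spread between libraries (exact permutation test, p = 0.457), and highest in the third Ct library. The 8 rod photoreceptor markers summed to 6.29 to 21.1 FPKM in Ct and to 25.1 to 77.8 FPKM in CS-exposed mice, and the 6 pigment epithelium markers to 0.922 to 1.85 and 2.70 to 25.6 FPKM, with Best1 at 0. Both lists were higher in each CS-exposed library (exact permutation test, p = 0.0286 each). Markers of red blood cells summed to at most 1.73 FPKM in Ct and 22.3 FPKM in CS-exposed mice, and those of melanocytes or iris to at most 2.61 and 6.52 FPKM. Both of these CS-exposed maxima were in the fourth library, and the other 3 reached at most 4.14 and 0.608 FPKM. Markers of endothelium stayed between 0.198 and 0.490 FPKM, and those of macrophages between 0.0148 and 0.640 FPKM. The part of these cells in the values of the 10 genes was not tested, apart from the epithelium, which is taken up at the end.

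CS-exposed and Ct mice were compared with limma on log2(FPKM + 0.1), with adjustment over all tested genes. Of the 10 genes, 9 reached the minimum mean of 1.0 FPKM and were tested, and Tgfbr2 did not. Of these, 0 had an adjusted p under 0.05, against 1 of 9794 tested genes (0.0102%). At an unadjusted p under 0.05 the count was 0 of 9, against 473 of all tested genes (4.83%). Groups that did not overlap were seen for 0 of 10 genes, against 302 of the tested genes (3.08%). Fold changes lay below 0 on the log2 scale for 6 genes and above 0 for 3, between -0.23 (Smad3) and 0.22 (Tgfbr1). Their median size was 0.07 on the log2 scale, and that of all tested genes was 0.08. The tests bound the change of each gene only as far as the intervals given below. The pseudocount of 0.1 FPKM draws the fold changes of low genes towards 0.

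Among the ligands, Tgfb2 stood at 16.3, 16.7, 14.8 and 13.1 FPKM in the Ct libraries and at 16.7, 16.2, 15.3 and 12.7 FPKM in the CS-exposed libraries. The range was 13.1 to 16.7 FPKM in Ct and 12.7 to 16.7 FPKM in CS-exposed mice, with the fourth library the lowest in each. The mean was 15.2 ± 1.65 FPKM in Ct and 15.2 ± 1.76 FPKM in CS-exposed mice (SD, n = 4), and the 95% confidence interval of the fold change ran from 0.86 to 1.17 (exact permutation test, p = 0.971). Between 1121 and 1773 recovered reads stood behind each value, the most of any of the 10 genes. Tgfb2 lies at chr1:186622792-186705989 on the minus strand (GRCm38) and shares exon sequence with the antisense gene Gm29491. The library kit named in the labels is not one that keeps the strand, so reads of an overlapping antisense gene cannot be told apart from those of Tgfb2.

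Tgfb1, at chr7:25687002-25705077, was measured at 12.2, 13.6, 11.0 and 11.2 FPKM in Ct and at 11.5, 11.9, 11.7 and 9.86 FPKM in CS-exposed mice. The highest library was a Ct library and the lowest a CS-exposed one, with the others mixed. On the log2 scale the fold change was -0.09 with a standard error (SE) of 0.09 and a 95% confidence interval from -0.29 to 0.11 (limma, adjusted p = 0.976, exact permutation p = 0.457). Tgfb2 exceeded Tgfb1 in 8 of 8 libraries, by 1.18 to 1.34 times in Ct and by 1.29 to 1.45 times in CS-exposed mice. The log2 ratio differed between groups by 0.09 (two-sided exact permutation test, p = 0.229, adjusted p = 0.714 over 5 ratios), and by 0.05 without the fourth Ct library.

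Of the TGF-beta receptors, Tgfbr1, the type I receptor (chr4:47353222-47414931), stood at 1.54, 1.43, 1.88 and 1.34 FPKM in Ct. In CS-exposed mice it stood at 1.83, 1.76, 2.04 and 1.62 FPKM. All 4 CS-exposed libraries lay above the median of Ct, yet the third Ct library lay above 3 of them. The log2 fold change of 0.22 was the highest of the 9 tested genes, with an SE of 0.16 and a 95% confidence interval from -0.13 to 0.57 (limma, adjusted p = 0.956, exact permutation p = 0.143). As a fold this interval ran from 0.91 to 1.48 times, on 140 to 252 reads of each library.

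Tgfbr2, the type II receptor (chr9:116084293-116175360), was at the edge of detection. Its values were 0.0315, 0.0635, 0.0719 and 0.127 FPKM in Ct and 0.0297, 0.127, 0.0713 and 0.0290 FPKM in CS-exposed mice. They rested on 3 to 14 reads per library, with 28 reads in the Ct libraries and 27 in the CS-exposed ones. The gene was under the minimum and was not fitted. An exact permutation test on log2(FPKM + 0.1) gave p = 0.686 (two-sided, 4 against 4 libraries), with these few reads behind each value. Within a library, Tgfbr1 exceeded Tgfbr2 by between 10.6 and 61.5 times. With 0.1 added to both FPKM values the mean log2 ratio was 3.27 in Ct and 3.58 in CS-exposed mice, a difference of 0.31 (exact permutation test, p = 0.286). This difference was 0.11 without the fourth Ct library, 0.49 without the second CS-exposed library, and 0.16 and 0.48 with pseudocounts of 1 and 0.01. In bulk RNA of this kind, few cells with the transcript and little transcript in every cell cannot be told apart.

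Of the BMP receptors, Bmpr1a (chr14:34410734-34503341) was measured at 5.90, 5.37, 5.44 and 5.38 FPKM in Ct and at 5.14, 5.24, 6.45 and 5.78 FPKM in CS-exposed mice. The CS-exposed libraries held both the lowest and the highest value. Its log2 fold change was 0.03, with a 95% confidence interval from -0.18 to 0.24 (limma, adjusted p = 0.991, exact permutation p = 0.743). Bmpr1a overlaps the antisense gene Gm17110, which was listed at a mean of 0.464 FPKM.

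Acvr1, another type I receptor (chr2:58388644-58567157), stood at 0.947, 0.877, 1.87 and 0.873 FPKM in Ct and at 1.18, 0.802, 0.932 and 1.04 FPKM in CS-exposed mice. A single library, the third of Ct, stood at about the double of its group, while the other 7 lay between 0.802 and 1.18 FPKM. This gave a log2 fold change of -0.13 with an SE of 0.27 and a 95% confidence interval from -0.72 to 0.46, the widest of the 9 tested genes (limma, adjusted p = 0.989, exact permutation p = 0.800). Acvr1 reached the minimum only through the mean of the Ct group, which that library lifted to 1.14 FPKM. Without it the gene was under the minimum and not fitted. The ratio of Bmpr1a to Acvr1 was 2.91 in that library and between 4.36 and 6.92 in the other 7. The difference of this log2 ratio between groups was 0.16 (exact permutation test, p = 0.629), and -0.09 without the library.

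Smad3, a receptor-activated SMAD of the TGF-beta arm (chr9:63646767-63757994), came nearest to the threshold. It stood at 3.39, 3.74, 3.41 and 3.12 FPKM in Ct and at 2.96, 2.77, 3.26 and 2.60 FPKM in CS-exposed mice. Of the CS-exposed libraries 3 of 4 lay below every Ct library, and the third lay between the Ct values. The mean was 3.41 ± 0.256 FPKM in Ct and 2.90 ± 0.285 FPKM in CS-exposed mice (SD, n = 4), a fold change of 0.85. The log2 fold change was -0.23, with an SE of 0.11 and a 95% confidence interval from -0.48 to 0.02. The unadjusted p of limma was 0.0647 (adjusted p = 0.956), and an exact permutation test gave p = 0.0571, where 0.0286 is the smallest that 4 against 4 libraries allow. The unadjusted p fell under 0.05 in 5 of 17 alternative analyses, over which it ranged from 0.0331 to 0.164, and the adjusted p was at least 0.906 in each.

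Smad2, the other SMAD of this arm, was measured at 6.32, 5.25, 5.63 and 5.38 FPKM in Ct and at 5.01, 5.03, 5.34 and 6.20 FPKM in CS-exposed mice. The groups overlapped over most of their range, and the log2 fold change was -0.07 with a 95% confidence interval from -0.29 to 0.15 (limma, adjusted p = 0.985, exact permutation p = 0.457). Smad2 exceeded Smad3 in each library, by up to 1.86 times in Ct and up to 2.39 times in CS-exposed mice. That log2 ratio differed between groups by 0.16, which was within the spread between libraries (exact permutation test, p = 0.429, adjusted p = 0.714). It was 0.05 without the fourth CS-exposed library and 0.09 without the second Ct library.

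Smad4, the mediator shared by both arms, was the SMAD with the highest level. Its values were 13.1, 10.9, 10.3 and 11.9 FPKM in Ct and 11.2, 11.8, 11.5 and 11.9 FPKM in CS-exposed mice. All CS-exposed values lay within the range of Ct. With 728 to 924 reads per library, the 95% confidence interval of the fold change was 0.89 to 1.14, the narrowest of the 9 tested genes (limma, adjusted p = 0.995).

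Smad7, the inhibitory SMAD, was measured at 1.02, 1.39, 1.36 and 0.995 FPKM in Ct and at 1.29, 0.850, 1.29 and 1.18 FPKM in CS-exposed mice. High and low libraries were found in both groups. Its log2 fold change was -0.05, and with 77 to 135 reads per library the 95% confidence interval ran from -0.51 to 0.42 (limma, adjusted p = 0.995). The ratio of Smad7 to Smad4 was 0.0719 to 0.132 over all libraries, and its log2 value differed between groups by -0.06 (exact permutation test, p = 0.800).

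**Figure D2:**
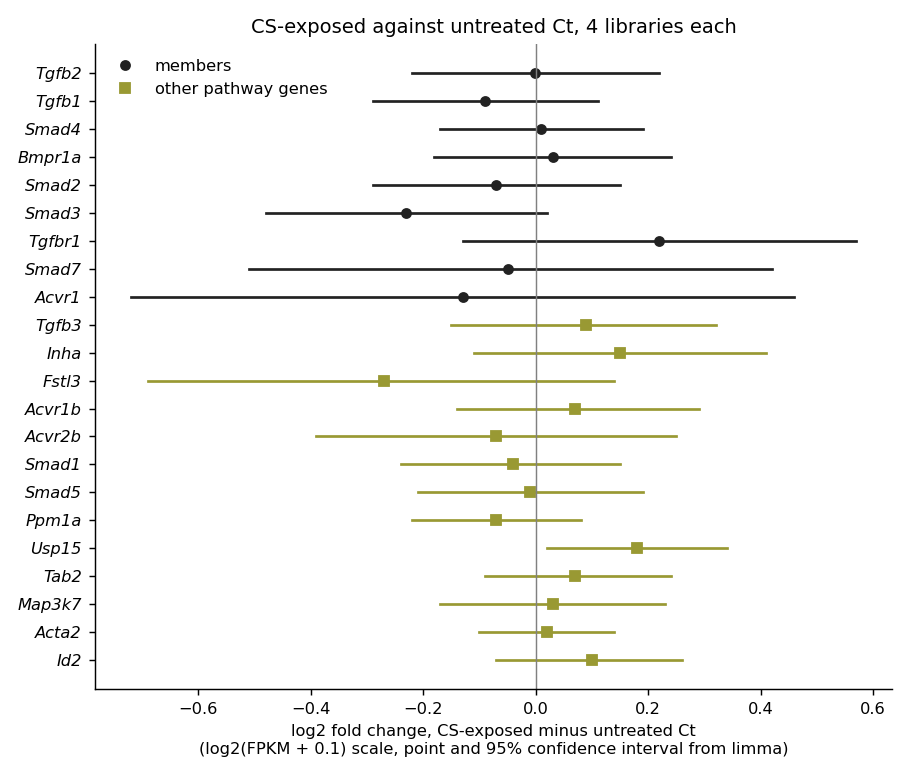
Log2 fold change (CS-exposed minus untreated Ct, log2(FPKM + 0.1) scale) of the 9 tested members (black circles) and of 13 other pathway genes (olive squares), with 95% confidence intervals from limma over 4 libraries per group. The interval of each member includes 0, and that of Usp15 runs from 0.02 to 0.34.

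The other genes of the pathway were followed in a list of 73 genes. Of these, 39 were tested, 34 were under the minimum and 6 of the 34 were listed at 0 in every library. At an adjusted p under 0.05 the count was 0 of 39, and at an unadjusted p under 0.05 it was 1 higher and 0 lower, against 4.83% of all tested genes. Fold changes lay below 0 for 17 and above 0 for 22, with a median size of 0.08 on the log2 scale, the same as for all tested genes.

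That 1 gene was Usp15, which encodes a deubiquitinating enzyme that acts on receptor-activated SMADs and on the type I receptor. It stood at 10.9, 10.5, 9.28 and 10.8 FPKM in Ct and at 11.4, 11.6, 11.8 and 12.2 FPKM in CS-exposed mice. The groups did not overlap, as for 1 of the 39 tested genes of the list and 3.08% of all tested genes. The log2 fold change was 0.18 with an SE of 0.07 (limma, p = 0.0329, adjusted p = 0.956), and an exact permutation test gave p = 0.0286. The unadjusted p was under 0.05 in 12 of 18 alternative analyses.

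By role, 4 of 12 other ligands were tested. Tgfb3, at 15.5 FPKM over the 8 libraries, had a level like that of Tgfb2, and Inha, the inhibin alpha subunit, had 3.42 FPKM. Their log2 fold changes were 0.09 and 0.15, and that of Tgfb3 was 0.01 without the third Ct library. Of 13 storage proteins and antagonists 3 were tested. Fstl3, which binds activins, stood at 2.86 FPKM with a log2 fold change of -0.27, which was -0.41 without the first Ct library and -0.15 without the fourth CS-exposed library.

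Of 9 other receptors 4 were tested. The activin receptors Acvr1b (type I, 7.77 FPKM) and Acvr2b (type II, 7.27 FPKM) had higher mean levels than any of the 4 receptors described above, with log2 fold changes of 0.07 and -0.07. The former was 0.14 without the third Ct library and 0.02 without the third CS-exposed library. The latter was -0.20 without the third CS-exposed library and 0.01 without the second Ct library. Of the BMP arm's SMADs, Smad1 stood at 8.16 FPKM and Smad5 at 4.97 FPKM, with log2 fold changes of -0.04 and -0.01. SMAD regulators were tested for 11 of 12 genes and the SMAD-independent arm for 5 of 5. Ppm1a, a phosphatase of receptor-activated SMADs, had 21.6 FPKM. Tab2 and Map3k7, which together form part of the TAK1 kinase complex, had 32.3 and 5.66 FPKM. Their log2 fold changes were -0.07, 0.07 and 0.03. Without the first Ct library those of Ppm1a and Tab2 were -0.02 and 0.14.

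**Figure D3:**
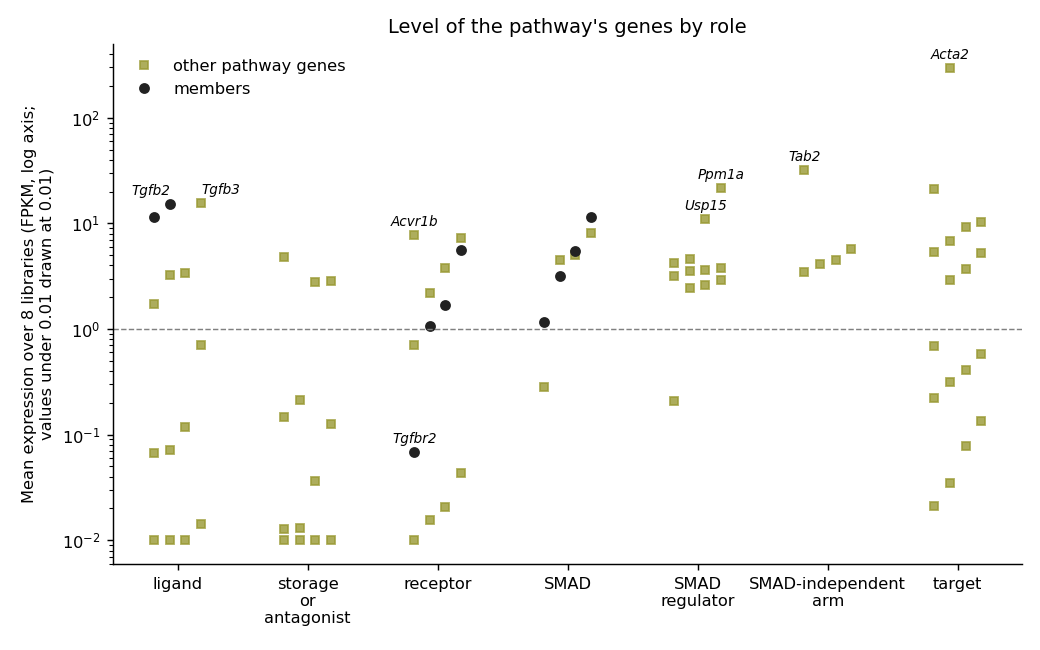
Mean expression over 8 libraries (FPKM, log axis) of the 10 members (black circles) and 73 other pathway genes (olive squares) by role, with values under 0.01 drawn at 0.01 and the dashed line at 1.0 FPKM. Tgfb2 and Tgfb3 lie side by side at 15.2 and 15.5 FPKM, and Tgfbr2 lies at 0.0688 FPKM.

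Of 18 targets 9 were tested. Acta2, the smooth muscle actin used as a marker of TGF-beta response in lens epithelium, was the highest at 298 FPKM. It stood at 268 to 316 FPKM in Ct and at 290 to 314 FPKM in CS-exposed mice, which is 0.02 as a log2 difference (limma, adjusted p = 0.989). Actin genes are near copies of each other, and how far the counting split reads between them was not tested. Id2, a target of BMP signalling, stood at 21.0 FPKM and differed by 0.10 on the log2 scale (limma, adjusted p = 0.956), or by 0.03 without the second CS-exposed library. The other Id genes of the list, Id1, Id3 and Id4, had log2 fold changes of -0.15, -0.31 and -0.11. None had an unadjusted p under 0.05 in the fit of all 8 libraries. Without the fourth Ct library Id3 was at -0.44 (limma, unadjusted p = 0.0422, adjusted p = 0.944). Id3 stood at 11.9 FPKM in the third Ct library, against at most 6.97 FPKM in the other Ct libraries. Its CS-exposed values were 5.39 to 6.64 FPKM. Id4 stood at 14.4 FPKM in the first Ct library, against at most 10.8 FPKM in the other Ct libraries. Its CS-exposed values were 8.62 to 10.7 FPKM.

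A target under the minimum, Snai2, was singled out after its values were seen. This repressor of epithelial genes stood at 0.322, 0.598, 0.381 and 0.218 FPKM in Ct and at 0, 0.0640, 0.0960 and 0.0910 FPKM in CS-exposed mice. The groups did not overlap, on 63 reads in Ct against 11 in CS-exposed mice. In a fit without the minimum the log2 fold change was -1.55 (limma, adjusted p = 0.906). It was the 1 gene with an unadjusted p under 0.05 among 28 genes of the list that were under the minimum and above 0, against 862 of 21019 genes (4.10%) in the same fit.

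Because FC were separated from the epithelium by hand, the 10 genes were set against the mean log2 value of the epithelium markers (the epithelium score) over the 8 libraries. None of the 10 relations passed adjustment, here or under the alternatives. By Pearson's r the smallest p was that of Smad4 (Pearson r = -0.67, permutation p = 0.0695, adjusted p = 0.549, Spearman rho = -0.62, permutation p = 0.115), and r was -0.34 without the 2 libraries farthest from the median. Smad3 had r = 0.54 (permutation p = 0.165) and rho = 0.71 (permutation p = 0.0576), with r = 0.29 without those 2 libraries. For Acvr1, r was 0.54 (permutation p = 0.162) but rho was -0.02 (permutation p = 0.977), and r was -0.55 without the 2 libraries. The relation of Acvr1 rests on the third Ct library, which had both the highest epithelium score (3.16) and the highest Acvr1. When that library alone was left out, r was -0.62 for Acvr1. For Tgfb1 it was then 0.73 (permutation test, adjusted p = 0.415), against 0.26 with all 8 libraries. For Tgfb2 it was 0.56 (permutation test, adjusted p = 0.507), against 0.27. With each value centred on the mean of its group, Tgfbr1 had r = 0.83 (permutation test, adjusted p = 0.0923), against 0.44 without centring. With each library centred on its median, Smad4 had r = -0.84 (permutation test, adjusted p = 0.0925).

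**Figure D4:**
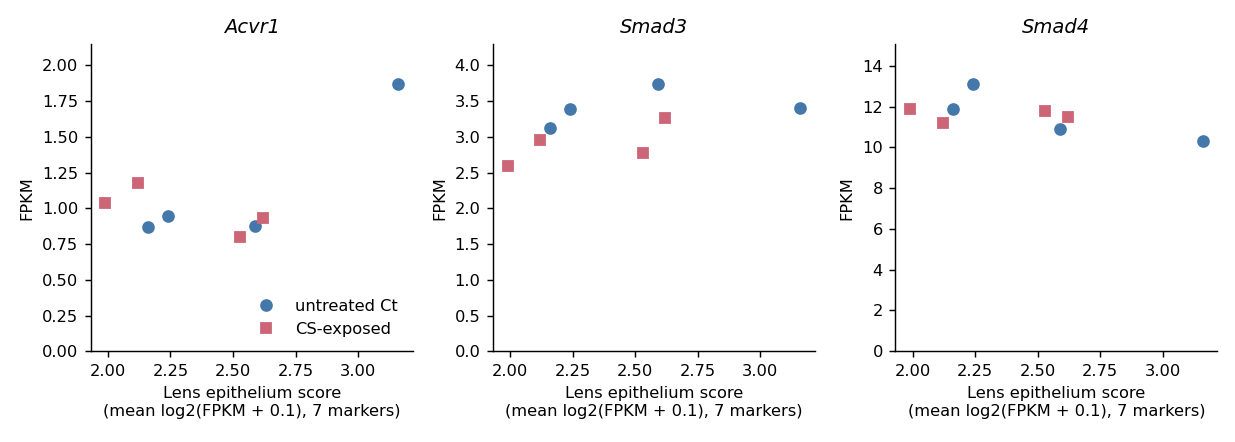
FPKM of Acvr1, Smad3 and Smad4 against the lens epithelium score (mean log2(FPKM + 0.1) of 7 markers) in 4 untreated Ct (blue circles) and 4 CS-exposed (red squares) libraries. In Acvr1 the library at a score of 3.16 and 1.87 FPKM stands apart from the other 7.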

How the data were processed

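Lens FC RNA of 4 CS-exposed and 4 untreated Ct pools was sequenced as paired reads of 150 bases. The unit of all values used is FPKM, which the authors deposited for each library after alignment to GRCm38 (STAR 2.5) and counting per gene (HTSeq 0.6.1). The annotation release is not given in the sources used here. Columns with the authors' group means, log2 fold changes and p-values were not used.

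Groups came from the labels. A minimum of 1.0 FPKM was set on the larger group mean, and log2(FPKM + 0.1) of the remaining genes was fitted by limma 3.58.1 (R 4.3.3, lmFit, eBayes with a trend, two-sided), with Benjamini-Hochberg adjustment over the 9794 genes. The pools hold different mice. Single values were compared with two-sided exact permutation tests over all 70 assignments of the libraries, whose smallest p is 0.0286. Relations with the epithelium markers were tested over all orders of the libraries.

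Whole reads were recovered from the FPKM steps for 99.78% of the tested genes (tolerance 0.02 reads). The estimated depth was 18100000 to 23300000 fragments. Coordinates and overlaps came from the GENCODE annotation of GRCm38, and promoters from RefSeq (GRCm38.p6).

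The members, the pathway list and the markers were chosen with earlier results of these data known. All members are named. Of the other pathway genes, those with an unadjusted p under 0.05 and the 2 highest of each role are named. Snai2, Smad6, Id1, Id3 and Id4 were added after their values were seen. Ltbp3, among the 2 highest of its role, is not described. Alternatives were pseudocounts of 1 and 0.01, no minimum or a minimum of 5 FPKM, median centring, quantile normalization, eBayes without a trend or robust, a replicate block, limma-voom on recovered reads, leaving out each library and, for the epithelium relations, centring on the group means. The epithelium relations without the third Ct library were added after seeing the data. Other tools were Python 3.11.15 with scipy 1.17.1, pandas 2.3.3, numpy 2.4.6 and matplotlib 3.10.9. The fit was tested on simulated data.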

Additional observations from a re-analysis of the deposited data

Results flagged for a closer look

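Of 74 groups of 4 libraries examined, 6 held a library whose distance from the others passed Dixon's 95% critical value, where chance gives about 1 in 20, or 3.70. Bmpr1a stood at 5.90 FPKM in the first Ct library and at 5.37 to 5.44 FPKM in the other 3. Acvr1 stood at 1.87 FPKM in the third Ct library and at 0.873 to 0.947 FPKM in the other 3. In the same library the log2 ratio of Bmpr1a to Acvr1 was 1.49, against 2.49 to 2.52 in the other Ct libraries. Ppm1a stood at 24.4 FPKM in the first Ct library against 21.1 to 21.5 FPKM, and Id2 at 20.8 FPKM in the fourth against at most 20.2 FPKM. The mean log2 value of melanocyte or iris markers was 0.00677 in the fourth CS-exposed library and -2.72 to -2.32 in the other 3.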

How the results depend on the processing

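The count of members with an adjusted p under 0.05 stayed at 0 under each alternative run. With an unadjusted p under 0.05 it was 1 (Smad3) under median centring, without a trend and with limma-voom, and 0 to 1 on leaving out 1 library, 1 without the fourth Ct or the third CS-exposed library. For the other pathway genes that count was 2 without a minimum, 0 under median centring and 0 with the replicate block. On leaving out 1 library it was 0 to 2, with 0 without Ct libraries 2 or 3 or CS-exposed libraries 3 or 4. Besides Usp15, the genes counted were Snai2 without a minimum, Fstl3 without the first Ct library and Id3 without the fourth. Smad6 was counted without the second CS-exposed library (log2 fold change -0.33, limma, unadjusted p = 0.00931, adjusted p = 0.891). With all 8 libraries the unadjusted limma p of Smad6 was 0.0706. Over all genes the adjusted count was 0 without a minimum, 0 without a trend, 5 with the replicate block, 2 with limma-voom and 0 to 1 on leaving out 1 library, 0 without the fourth Ct library. The unadjusted count was 862 without a minimum and 226 with a minimum of 5 FPKM, since more or fewer genes were tested. It was 522 with the replicate block.

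Same-numbered libraries of the groups had correlations of their deviations of 0.012, 0.078, 0.111 and 0.161 (mean 0.09, against -0.03 for differently numbered ones). Not every pair was over 0.1, so the libraries were treated as unpaired. That cut is a rule and not a test, and a pairing by number was not tested. The replicate block changed no call of a member.

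On leaving out 1 library the log2 fold change changed sign for Tgfb2 (-0.07 to 0.08), Bmpr1a (-0.04 to 0.07), Smad4 (-0.04 to 0.07), Smad7 (-0.12 to 0.08), Acta2 (-0.02 to 0.06), Acvr2b (-0.20 to 0.01), Map3k7 (-0.01 to 0.07), Smad1 (-0.09 to 0.01) and Smad5 (-0.06 to 0.02). The log2 ratio of Bmpr1a to Acvr1 ranged from -0.09 to 0.29 and that of Smad7 to Smad4 from -0.18 to 0.07. Acta2 was at -0.02 with quantile normalization. The relation with the epithelium score changed sign for Tgfbr2 (r = -0.38, quantile normalization), for Bmpr1a (r = -0.31, median centring, and -0.25, quantile normalization) and for Acvr1 (r = -0.62 without the third Ct library). Apart from that library for Acvr1, the cause was not tested. Tgfbr2 rested on 3 to 14 reads per library.

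Over the alternatives that fitted each gene, the log2 fold change lay between -0.13 and -0.03 for Tgfb1 and 0.14 and 0.31 for Tgfbr1. It lay between -0.13 and -0.01 for Smad2, -0.29 and -0.18 for Smad3, and -0.23 and -0.05 for Acvr1. Acvr1 was not fitted without the third Ct library, so this range does not cover its sign there. Its other Ct values were 0.873 to 0.947 FPKM, against a CS-exposed mean of 0.988 FPKM.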
